A study of Rattus norvegicus with 8 samples.

Results

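The genes described here are the rat zinc finger genes that carry a number after Zfp or Znf in their symbol, measured in perfused rat liver. A gene was a member when a probe set of the array (a group of probes read out as 1 value) carried 1 such symbol in the platform annotation, and Zfp36, Zfp36l1 and Zfp36l2, which encode RNA-binding proteins of another kind, were left out. This gave 149 genes of the 14511 tested, 148 named Zfp and 1 named Znf. Of the 149, 9 had more than 1 probe set, and then the brightest on average was taken. A further 4 probe sets carried a member symbol beside other symbols and were not used.

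Livers of male Wistar rats aged 6 to 10 weeks were perfused with Krebs-Henseleit buffer, a salt solution buffered by bicarbonate. The normoosmotic group (305 mosm/L) and the hypoosmotic group (225 mosm/L) had 4 arrays each, all at the 180 min time point, and no sample carried any other treatment or a genetic change. A hypoosmotic buffer makes liver cells take up water and swell, and the comparison asks which transcripts differ after that perfusion. Whether each array stands for its own animal is not in the labels, so the p-values reflect only how far these samples spread, and that spread may be technical. Hepatocyte markers averaged 11.68 to 11.83 (log2) on the normoosmotic arrays and 11.74 to 11.82 on the hypoosmotic ones, while the 4 lymphocyte and 4 neutrophil markers measured all lay near background. Over all genes hypoosmotic replicate 3 stood apart on the second principal component (28.5, against -15.3 to 6.60 on the other 7 arrays). Without it 10 zinc finger genes fell and 7 rose, and 15 of the 16 called with all arrays remained, Zfp451 being the one lost. Whole liver was measured, so fewer cells of a type and less RNA per cell cannot be told apart.

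A zinc finger is a short loop of protein held by a zinc ion, and proteins with arrays of such fingers bind chosen DNA sequences. Most numbered zinc finger genes encode such DNA-binding proteins, many of them with a KRAB domain that recruits the corepressor Trim28 and silences chromatin, and many are present at low levels. A minority bind RNA, mark stalled ribosomes or help to build ribosomes. Many lie side by side in the genome as products of gene duplication, and related members can share sequence, so the signal of one can hold some of another.

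Among the 149 zinc finger genes, 10 fell and 6 rose in hypoosmotic livers, and 133 did not pass (adjusted p under 0.05 over all genes by the Benjamini-Hochberg method, from limma, which fits each gene with a spread shared in part between genes). Changes are hypoosmotic minus normoosmotic means on the log2 scale, where 1 is a doubling, with a standard error (SE). The share called was 10.7%, beside 7.07% of all genes tested. For falls it was 6.71% beside 4.62% of all genes, and for rises 4.03% beside 2.45%. Among genes above the near-background level of 3.43 (log2), the 95th percentile of the group means of 53 odorant receptor genes, the shares were nearer, with 8.26% of members lower beside 6.74% of all such genes and 4.13% higher beside 3.45%. The largest falls were those of Zfp280b, Zfp566, Zfp131 and Zfp260, by 0.94 to 0.78 on the log2 scale. The largest rises measured above background were those of Zfp958 (0.67 ± 0.14 SE) and Zfp426 (0.62 ± 0.14). The normoosmotic mean of Zfp426, 3.47, was close to the near-background level. Zfp799 had a change of 0.64 ± 0.15, but both its group means lay below the near-background level, so that value is no exact size. None of the 149 changed by 1 or more on the log2 scale. Against a minimum fold change of 1.2 only Zfp131 passed (limma treat, adjusted p = 0.0309). That is 1 of 149 members, a share near that of all genes, 83 of 14511 (0.572%).

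The 2 called pairs that are direct neighbours in the gene order are shown first. They were picked because each pair moved in 1 direction, and neighbouring pairs were not counted over all genes. In the RefSeq gene order of rat assembly GRCr8, counting protein-coding genes only, 17 pairs of members were direct neighbours, and in 10 of them both changes had the same sign. Zfp566 and Zfp260 on chromosome 1 both fell, and Zfp26 and Zfp426 on chromosome 8 both rose. Of the 8 fits that left out 1 array, Zfp566 and Zfp260 passed in 8, but Zfp26 in 2 and Zfp426 in 3. For each pair the next member along did not pass. Zfp382, beside Zfp260, had a change of 0.04 ± 0.15 (SE), and Zfp266, beside Zfp426, one of 0.07 ± 0.18. Zfp35 on chromosome 18 fell, while its neighbour Zfp24 had a change of -0.28 ± 0.11 (adjusted p = 0.154, limma). The promoters of these pairs, and of Zfp131, the member with the smallest p-value, are the 250 bases before the RefSeq start, read 5′ to 3′ along the gene. Zfp566 (GRCr8, chr1:94460666-94460915, minus strand) and Zfp260 (chr1:94469611-94469860, plus strand) point away from each other. Zfp26 (chr8:27261650-27261899) and Zfp426 (chr8:27305058-27305307) both lie on the minus strand, as does Zfp131 (chr2:53485286-53485535). Capitals mark the motifs searched on both strands. The GC box bound by factors of the Sp1 family was searched as GGGCGG. The box bound by the nuclear factor Y complex was searched as CCAAT. The element bound by the TATA-binding protein near a start site was searched as TATAAA. The core bound by ETS factors was searched as CCGGAA. The core bound by the zinc finger protein YY1 was searched as ATGGCGG. The cyclic AMP element was searched as TGACGTCA. The core bound by NFAT factors was searched as TGGAAA.
Zfp566: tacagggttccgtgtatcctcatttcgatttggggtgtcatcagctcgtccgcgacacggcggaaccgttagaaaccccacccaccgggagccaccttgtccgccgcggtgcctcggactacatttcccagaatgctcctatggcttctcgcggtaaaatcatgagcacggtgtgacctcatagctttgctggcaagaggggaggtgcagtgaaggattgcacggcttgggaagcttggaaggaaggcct
Zfp260: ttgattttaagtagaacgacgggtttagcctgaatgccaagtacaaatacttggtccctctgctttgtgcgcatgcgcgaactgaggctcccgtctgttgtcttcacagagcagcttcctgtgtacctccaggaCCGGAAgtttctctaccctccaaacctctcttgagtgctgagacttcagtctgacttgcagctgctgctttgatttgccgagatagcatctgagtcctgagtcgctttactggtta
Zfp26: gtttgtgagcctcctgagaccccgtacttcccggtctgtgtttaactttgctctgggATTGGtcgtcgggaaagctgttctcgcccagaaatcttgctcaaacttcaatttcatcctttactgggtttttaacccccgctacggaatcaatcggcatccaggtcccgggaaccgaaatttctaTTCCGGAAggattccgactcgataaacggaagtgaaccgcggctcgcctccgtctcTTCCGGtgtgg
Zfp426: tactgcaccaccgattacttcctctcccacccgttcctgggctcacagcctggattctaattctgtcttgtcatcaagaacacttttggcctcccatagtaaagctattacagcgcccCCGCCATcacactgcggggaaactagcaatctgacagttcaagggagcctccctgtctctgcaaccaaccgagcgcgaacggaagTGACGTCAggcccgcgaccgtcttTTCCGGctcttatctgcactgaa
Zfp131: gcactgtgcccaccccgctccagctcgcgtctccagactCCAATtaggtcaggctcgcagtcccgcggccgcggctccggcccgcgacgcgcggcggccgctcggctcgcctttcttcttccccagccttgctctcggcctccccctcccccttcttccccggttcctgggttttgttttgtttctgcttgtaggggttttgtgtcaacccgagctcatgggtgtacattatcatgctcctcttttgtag

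The promoters of the 2 falling neighbours shared no motif of this set. Zfp566 held none of the 7, while Zfp260 had 1 ETS core. The 2 rising neighbours both held ETS cores, 3 in Zfp26, of which an overlapping pair reads in both directions, and 1 in Zfp426, which also had a YY1 core and a cyclic AMP element. Zfp131 held a CCAAT box only. RefSeq promoters were found for 124 of the 149 members. The ETS core was in 41 of these 124 (33.1%), in 18.4% of the 11955 promoters of genes on the array, and in 13.4% of all 27457. The YY1 core was in 8.06% of the members' promoters, 3.08% of the array's and 2.54% of all. The GC box was in 43.5% of the members', 47.3% of the array's and 32.4% of all promoters, and CCAAT in 35.5%, 35.6% and 34.3%. In the same order, TATAAA was in 8.06%, 11.2% and 13.1%, TGGAAA in 15.3%, 17.0% and 19.5%, and TGACGTCA in 3.23%, 2.28% and 1.70%. The ETS core was in 3 of the 10 promoters of members that fell, 4 of the 5 found for members that rose, and 34 of the 109 found for members that did not pass. The motifs describe these windows and say nothing of binding.

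**Figure D1:**
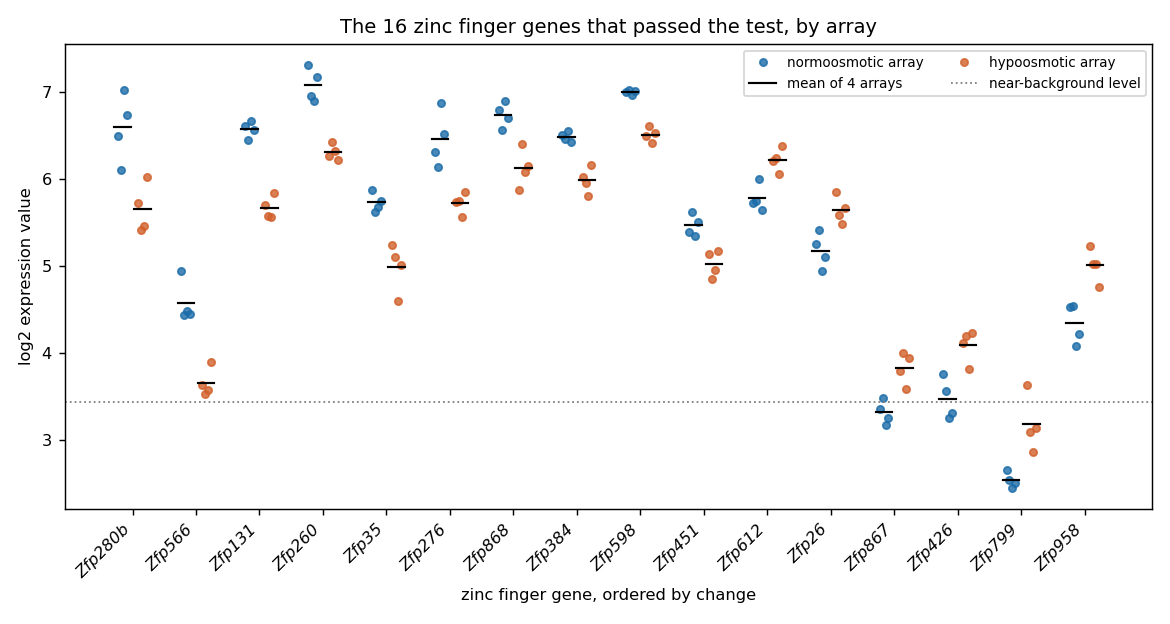
Log2 expression values of the 16 zinc finger genes that passed the test, ordered by change from the largest fall (left) to the largest rise (right). Each point is 1 array (blue normoosmotic, orange hypoosmotic, 4 each), black bars are group means, and the dotted line is the near-background level of 3.43. No gene has overlapping groups, and Zfp799 lies below the line in both group means.

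Some of the genes that fell have known roles outside silencing through KRAB. Zfp131, a zinc finger protein with a BTB domain, stood at 6.61, 6.45, 6.67 and 6.57 (log2) on the normoosmotic arrays and at 5.70, 5.58, 5.56 and 5.84 on the hypoosmotic ones. The lowest normoosmotic array was 6.45 and the highest hypoosmotic one 5.84, so the groups were far apart. The change was -0.91 ± 0.10 (SE), or 1.87-fold lower, with an adjusted p of 0.00313 (limma). Zfp384, known as a nuclear matrix protein and regulator of matrix metalloproteinase genes, stood at 6.51, 6.46, 6.55 and 6.43 against 6.02, 5.96, 5.81 and 6.16. The normoosmotic SD was 0.05 (n = 4), and the change was -0.50 ± 0.10 (adjusted p = 0.0169, limma). It did not pass without normoosmotic replicate 3 (0.0570).

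Zfp598, the ubiquitin ligase that marks collided ribosomes, had the tightest normoosmotic values of the called members, at 7.0, 7.02, 6.97 and 7.01, against 6.50, 6.61, 6.41 and 6.53. The groups were 0.36 apart, and the change of -0.49 ± 0.09 (SE) passed with an adjusted p of 0.0117 (limma). Zfp451, a ligase for the small modifier SUMO, stood at 5.39, 5.62, 5.35 and 5.51 against 5.14, 4.85, 4.96 and 5.17, so the groups were 0.18 apart. Its change of -0.44 ± 0.11 passed narrowly (adjusted p = 0.0400, limma). Of the 8 fits that left out 1 array it passed in 1, with adjusted p-values from 0.0382 to 0.105. It was also lost with the replicate number as a block and with an intensity trend.

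The neighbours Zfp566 and Zfp260 fell by similar sizes from different levels. Zfp566, a KRAB zinc finger gene, stood at 4.95, 4.44, 4.48 and 4.45 in the normoosmotic group and at 3.63, 3.53, 3.58 and 3.90 in the hypoosmotic group. Normoosmotic replicate 1 was higher than the other 3, and every hypoosmotic array lay below all 4. The change was -0.92 ± 0.14 (SE), or 1.89-fold lower (adjusted p = 0.0055, limma), and the hypoosmotic mean of 3.66 was close to the near-background level of 3.43. Zfp260, a cofactor of GATA4 in heart cells, went from 7.31, 6.96, 6.90 and 7.17 to 6.27, 6.43, 6.32 and 6.22, a change of -0.78 ± 0.12 (adjusted p = 0.00515, limma). Both genes passed whichever array was left out.

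The remaining falls were Zfp280b, Zfp35, Zfp276 and Zfp868. Zfp280b, whose product resembles the insect insulator protein suppressor of hairy wing, had the largest fall of the members and also the widest normoosmotic spread of the 16, at 6.50, 6.11, 7.03 and 6.74 against 5.73, 5.41, 5.46 and 6.03. The lowest normoosmotic and highest hypoosmotic arrays were 0.08 apart, and the change was -0.94 ± 0.20 (SE, adjusted p = 0.0183, limma). Zfp35 went from 5.73 ± 0.11 to 4.99 ± 0.28 (SD, n = 4 each), Zfp276 from 6.46 ± 0.32 to 5.73 ± 0.12, and Zfp868 from 6.74 ± 0.14 to 6.13 ± 0.22. With 1 array left out, Zfp280b passed in 5 of 8 fits (it was lost without normoosmotic replicate 3 or 4 and without hypoosmotic replicate 2, the last giving the highest adjusted p, 0.0579). Zfp35 passed in all 8. Zfp276 passed in 7 (0.0502 without normoosmotic replicate 4) and Zfp868 in 7 (0.0599 without normoosmotic replicate 3).

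The 6 rises had a median size of 0.57 on the log2 scale, against 0.74 for the 10 falls. Zfp958 stood at 4.53, 4.54, 4.08 and 4.22 on the normoosmotic arrays and at 5.23, 5.03, 5.03 and 4.76 on the hypoosmotic ones. Normoosmotic replicates 3 and 4 were the low ones, the groups did not overlap, and the change was 0.67 ± 0.14 (SE), or 1.59-fold (adjusted p = 0.0177, limma). A second probe set of Zfp958 had a change of 0.47. Of the 9 members with more than 1 probe set, the probe sets disagreed most in a pair of genes that did not pass. Zfp534l1 had a change of 0.11 at the probe set used and 0.55 at a dimmer one (mean level 5.94), and Znf57l had 0.16 at the one used and 0.68 at one near background (2.33). Both were named after their values were seen. Zfp426, a KRAB zinc finger gene, went from 3.76, 3.56, 3.25 and 3.31 to 4.12, 4.20, 3.82 and 4.23, and its neighbour Zfp26 from 5.26, 5.41, 4.95 and 5.10 to 5.85, 5.59, 5.49 and 5.67. The normoosmotic mean of Zfp426, 3.47, was close to the near-background level of 3.43, and normoosmotic replicates 3 and 4 lay below that level. In both genes normoosmotic replicate 3 was the lowest of its group. The changes were 0.62 ± 0.14 (adjusted p = 0.0242, limma) and 0.47 ± 0.13 (0.0480).

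Zfp799 and Zfp867 were measured at the edge of the array's range. Zfp799 stood at 2.66, 2.54, 2.45 and 2.51 against 3.63, 3.10, 2.86 and 3.14, so both group means lay below the near-background level, and its 1.56-fold rise (adjusted p = 0.0280, limma) is not an exact size. Zfp867 went from 3.32 ± 0.14 to 3.83 ± 0.18 (SD, n = 4 each, adjusted p = 0.0280, limma), with the normoosmotic mean below that level. Zfp612 was the brightest rise, at 5.73, 5.75, 6.00 and 5.64 against 6.21, 6.24, 6.06 and 6.38, with a gap between the groups of 0.06 and a change of 0.44 ± 0.11 (0.0406). The call of Zfp612 was lost with the replicate number as a block and with median centring, that of Zfp26 with an intensity trend and with median centring, and that of Zfp867 with a further quantile normalization.

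The rises held less well than the falls when arrays were left out. Of the 8 such fits Zfp958 passed in 6 (0.0155 to 0.0567), Zfp426 in 3 (0.0161 to 0.0771), Zfp799 in 3 (0.0154 to 0.0832), Zfp867 in 2 (0.0165 to 0.0873), Zfp26 in 2 (0.0424 to 0.137) and Zfp612 in 2 (0.0352 to 0.110), by adjusted p of limma. The highest value came without normoosmotic replicate 3 for each, except Zfp612, where it came without normoosmotic replicate 4. Rising members numbered 0 without normoosmotic replicate 4, 1 without normoosmotic replicate 3 or hypoosmotic replicate 2, and 2 without normoosmotic replicate 1, hypoosmotic replicate 1 or hypoosmotic replicate 4. Falling members numbered 6 without normoosmotic replicate 3 and 7 to 11 without any other array. Without normoosmotic replicate 4, where 0 members rose by limma, 13 had a change above 0 at an unadjusted p under 0.05, beside 19 with every array. Replicates 3 and 4 were the lowest normoosmotic arrays in 5 of the 6 rising genes, and replicate 4 was the lowest in Zfp612. Over all genes 468 to 1051 were called in these fits, against 1026 with every array. Zfp131, Zfp566, Zfp260, Zfp35 and Zfp598 were the 5 members that passed in all 8.

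**Figure D2:**
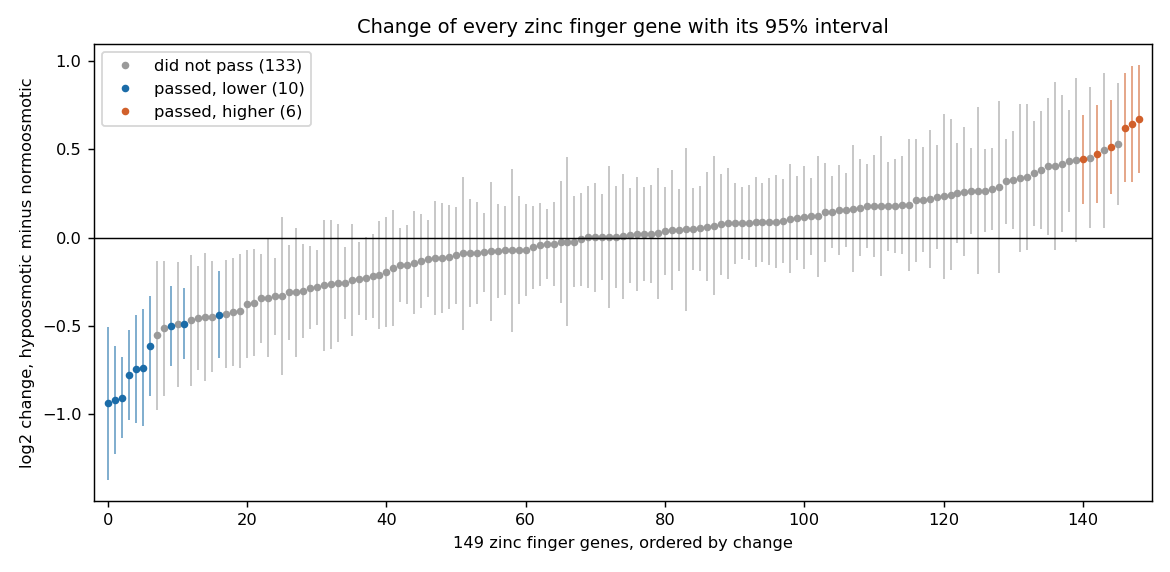
Log2 change, hypoosmotic minus normoosmotic, of all 149 zinc finger genes in order of size, each with its 95% interval from limma as a vertical line. Blue points passed as lower (10), orange as higher (6) and grey did not pass (133). The changes run from -0.94 to 0.67 and cross 0 near the middle of the order.

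The median change of the zinc finger genes was 0.0075 on the log2 scale, beside 0.015 for all genes, and 69 of the 149 changes were below 0. Median centring of the arrays gave -0.04 for both. The spread was wider than over all genes. The middle 80% of changes ran from -0.45 to 0.37 for the zinc finger genes and from -0.32 to 0.31 for all genes, and the median size was 0.19 beside 0.14. The standard errors were alike, with medians of 0.13 for both. At an unadjusted p under 0.05 by limma there were 50 members (33.6%), beside 20.7% of all genes. Above the near-background level there were 47 of 121 members, beside 28.3% of the 9913 genes there. The other values of this paragraph were not matched on level.

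Of the 149 genes, 33 (22.1%) had groups that did not overlap, beside 13.5% of all genes. Above the near-background level it was 32 of 121 members, beside 1837 of 9913 genes. In 23 (15.4%) the hypoosmotic arrays were all lower, beside 8.21% of all genes, and in 10 (6.71%) all higher, beside 5.33%. All 16 called members were among the 33. The other 17 had changes from -0.51 to 0.53 and adjusted p-values of 0.0685 and above (limma). Most members changed little. In 87 (58.4%) the change was under 0.25 in size, and in 73 of the 133 that did not pass the 95% interval, not adjusted for the number of genes, lay within 0.5 of 0 on both sides. In the other 60 a change of 0.5 was within the interval, and in 0 of the 133 one of 1.

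The members nearest to the threshold without passing it were Zfp639 (-0.33 ± 0.10 SE, adjusted p = 0.0685), Zfp9 (0.53 ± 0.16, 0.0685) and Zfp574 (-0.46 ± 0.13, 0.0689), by limma. Zfp639 stood at 6.58, 6.62, 6.52 and 6.61 against 6.42, 6.17, 6.16 and 6.25, so its groups were apart with a small gap. Just inside the threshold was Zfp26 (0.0480). Zfp639 passed with median centring. Zfp9 passed with array weights and without hypoosmotic replicate 3 (0.0446), and Zfp574 passed without hypoosmotic replicate 1 (0.0426). Besides Zfp9, the members with a change of 0.5 or more that did not pass were Zfp142 (-0.51 ± 0.17, 0.110) and Zfp219 (-0.55 ± 0.19, 0.118), both named after their values were seen.

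**Figure D3:**
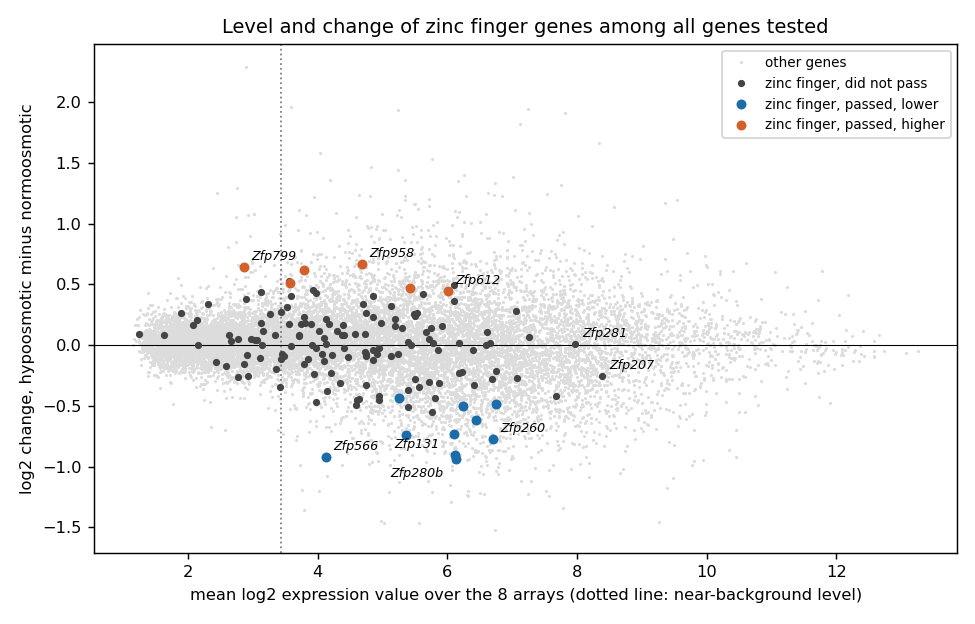
Mean log2 expression value over the 8 arrays (horizontal) against the log2 change, hypoosmotic minus normoosmotic (vertical), for 149 zinc finger genes over all other genes tested in light grey. Blue and orange points passed as lower and higher, and dark points did not pass. The falls lie at levels from 4.12 to 6.76 and the rises from 2.86 to 6.00.

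Most zinc finger genes lay in the middle range of the array. Their levels, as means over the 8 arrays, ran from 1.24 for Zfp101 to 8.39 for Zfp207, with a median of 4.59, the same as for all genes, whose levels reached 13.26. In 121 of the 149 at least 1 group mean was above the near-background level. Of these 121, 10 fell (8.26%) and 5 rose (4.13%), beside 6.74% and 3.45% of the 9913 genes above that level. Of the other 28, 0 fell and 1 rose, Zfp799 (3.57%), beside 0.0435% and 0.304% of the genes there, and 3 had an unadjusted p under 0.05 by limma. All genes were split into 3 equal parts by level, and 33 members fell into the dimmest, 87 into the middle and 29 into the brightest part.

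The share called differed by level, in the members as in all genes. In the brightest part 7 of 29 members fell (24.1%), beside 9.96% of all genes there, and 1 rose (3.45%), beside 3.68%. The falls in this part numbered 4 without normoosmotic replicate 3 and 5 to 8 without any other array. The median change of these 29 members was -0.22 (-0.12 without hypoosmotic replicate 3), and of all genes in that part -0.02. In the middle part 3 of 87 members fell (3.45%), beside 3.8% of all genes, and 4 rose (4.60%), beside 3.27%. In the dimmest part 0 of 33 fell, beside 0.0827%, and 1 rose, beside 0.413%. The called falls had a median level of 6.12 and the called rises one of 4.23. Over all genes these medians were 6.52 and 5.84. In the dimmest part limma gave 5 of the 33 members an unadjusted p under 0.05, beside 241 of all 4837 genes there. Of these members Zfp597 had a change below 0, and Zfp3, Zfp763, Zfp786 and Zfp799 had changes above 0. Apart from Zfp799, these genes were named after their values were seen.

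The 5 brightest members did not pass. Zfp207, which loads a checkpoint protein onto kinetochores, was the highest of the 149 and stood at 8.56, 8.54, 8.56 and 8.39 against 8.31, 8.28, 8.23 and 8.21. Every hypoosmotic array was below every normoosmotic one, yet the change of -0.26 ± 0.09 (SE) gave an adjusted p of 0.136 (limma). Zfp281, a factor of GC-rich promoters, came next, at 8.02, 8.08, 7.51 and 8.24 against 8.22, 7.93, 7.97 and 7.76. Its groups overlapped fully and the change was 0.01 ± 0.16, with a 95% interval from -0.35 to 0.36. Zfp800 (-0.42 ± 0.15, adjusted p = 0.124), Zfp266 (0.07 ± 0.18, 0.892) and Zfp592 (-0.27 ± 0.17, 0.429) completed the 5 brightest. Zfp800 passed without hypoosmotic replicate 4 (0.0332).

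By role, the members were grouped with their values known, so the groups serve as an order of description only. Among 9 genes grouped as regulators of promoters and chromatin 3 fell, Zfp131, Zfp384 and Zfp451, and 0 rose. The falls were 33.3%, beside 4.62% of all genes and 6.74% of genes above the near-background level, where all 9 lay. At an unadjusted p under 0.05 by limma there were 7, beside 20.7% of all genes and 28.3% of those above that level. Zfp451 was counted here although described above as a SUMO ligase, and it passed in 1 of the 8 fits without 1 array. Of the 9 changes 8 were below 0, and the median was -0.30, beside 0.015 for all genes. Because the genes were grouped with their values known, these shares and medians cannot show that such regulators fell more often than other genes. The falls numbered 1 without normoosmotic replicate 3 and 2 or 3 without any other array. Of those that did not pass, Zfp148, a binder of GC-rich promoters, had groups that did not overlap but a small change of -0.23 ± 0.09 (SE, adjusted p = 0.182). Zfp335, part of a histone methyltransferase complex, had one of -0.42 ± 0.14 (0.102), and Zfp410, an activator of the remodeller gene Chd4, one of -0.30 ± 0.12 (0.179). Zfp143, an activator at many housekeeping promoters, had a change of -0.21 ± 0.14 (0.455, all by limma). Apart from Zfp148, these genes were named after their values were seen.

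Among genes of ribosomes and RNA, 1 of 11 passed, Zfp598 (9.09%), which is near the 7.07% of all genes called. Zfp622 and Zfp593, which both help to mature the large ribosomal subunit, were at 6.42 ± 0.12 against 6.38 ± 0.14 and at 5.38 ± 0.37 against 5.40 ± 0.13 (SD, n = 4 each). Their changes were -0.04 ± 0.11 and 0.02 ± 0.17 (SE). A second probe set of Zfp622, dimmer than the one used, had a change of -0.29. The genes for binders of double-stranded RNA Zfp346 (-0.24 ± 0.14, adjusted p = 0.405) and Zfp385a (0.23 ± 0.21, 0.627) did not pass by limma, nor did the splicing-linked Zfp830 (-0.34 ± 0.11, 0.103), named after its value was seen.

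Among 10 developmental and corepressor-linked factors 0 passed by limma, and 1 had an unadjusted p under 0.05. That was Zfp746, a repressor of the coactivator gene Ppargc1a, at 5.65 ± 0.09 against 5.37 ± 0.08 (SD, n = 4 each) with an adjusted p of 0.116. Zfp217, which works with a histone demethylase complex, had a change of 0.02 ± 0.15 (SE, 0.967), and the imprinting regulator Zfp57 one of -0.02 ± 0.22 (0.978). Of 9 members with a SCAN domain, which pairs such proteins with each other, 0 passed by limma and 2 had an unadjusted p under 0.05, and their median change was 0.0025. Zfp746, Zfp57 and Zfp24 were named after their values were seen.

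**Figure D4:**
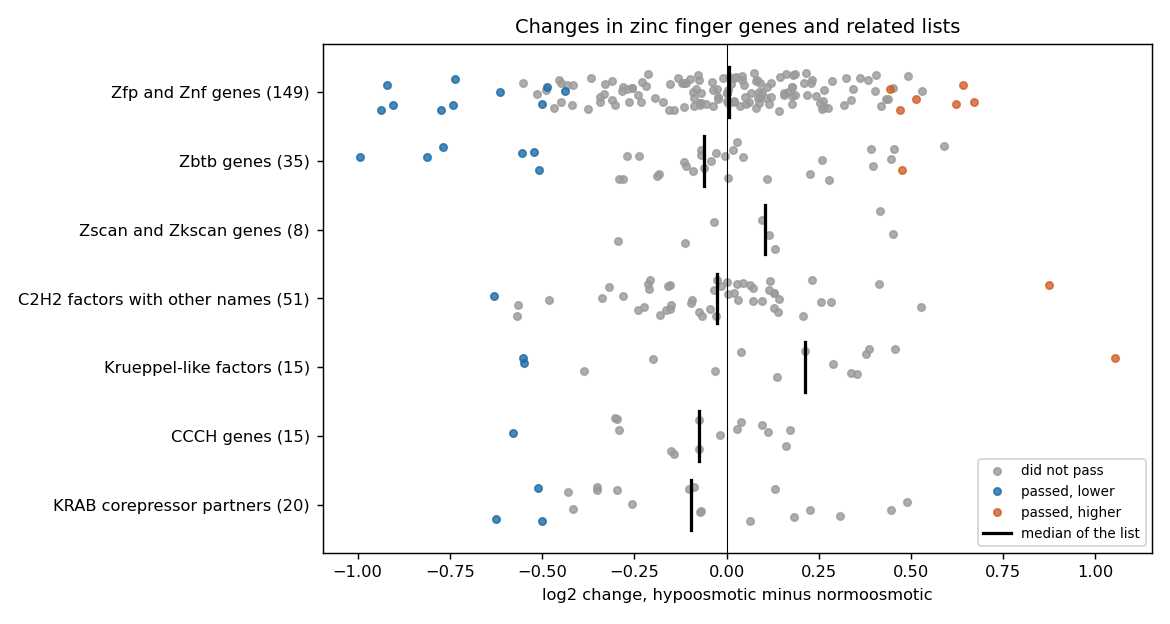
Log2 changes, hypoosmotic minus normoosmotic, of the 149 zinc finger genes (top) and of 6 related lists, with the number of measured genes in brackets. Each point is 1 gene, blue where it passed as lower, orange as higher and grey where it did not pass, the vertical position within a list is arbitrary, and black bars are list medians. The medians lie between -0.10 and 0.21.

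Relatives and partners of the zinc finger proteins also held called falls. Among 35 Zbtb genes, zinc finger factors with a BTB domain, 6 fell (17.1%, beside 4.62% of all genes) and 1 rose (2.86%, beside 2.45%). Of the 35, 30 lay above the near-background level, where 6.74% of genes fell and 3.45% rose. Zbtb2 went from 6.35, 6.36, 7.0 and 6.55 to 5.37, 5.74, 5.88 and 5.30, a change of -0.99 ± 0.18 (SE, adjusted p = 0.00931, limma). Zbtb11 went from 5.29, 5.22, 5.45 and 5.28 to 4.52, 4.34, 4.29 and 4.84 (-0.81 ± 0.13, 0.0071). In both genes every hypoosmotic array was below every normoosmotic one. Zbtb17, known as the Myc partner Miz-1, changed by -0.51 ± 0.11 (0.0173), and the rise was that of Zbtb7b (0.48 ± 0.13, 0.0461), named after its value was seen. The falls numbered 2 without normoosmotic replicate 3 and 3 without hypoosmotic replicate 2, and Zbtb7b passed in 1 of the 8 fits without an array.

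Of 20 measured partners of KRAB zinc finger proteins, 3 fell (15.0%, beside 4.62% of all genes) and 0 rose (beside 2.45%), by limma, with a median change of -0.10. At an unadjusted p under 0.05 by limma there were 11 of the 20, beside 20.7% of all genes. Of these, Cbx3 (0.49), Hdac1 (0.445) and Dnmt1 (0.31) had changes above 0, and the rest had changes below 0. Cbx3, Hdac1 and Dnmt1 were named after their values were seen. All 20 lay above the near-background level, where 28.3% of genes had such a p-value and 6.74% fell. Trim28, the corepressor that KRAB domains recruit, stood at 7.42, 7.23, 7.54 and 7.51 against 6.76, 6.58, 6.94 and 6.92. The groups were 0.29 apart, and the change of -0.63 ± 0.12 (SE, adjusted p = 0.0118, limma) passed in all 8 fits without 1 array. The DNA methyltransferase gene Dnmt3a (-0.50 ± 0.11, 0.0196) and the histone demethylase gene Kdm1a (-0.51 ± 0.13, 0.0398) passed in 5 and 1 of those fits, and the list's falls numbered 1 without normoosmotic replicate 1 or 4. Without hypoosmotic replicate 1 there was also 1 rise. Setdb1, the histone methyltransferase that Trim28 brings, was not analysed here.

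Among 51 C2H2 factors with other names 1 fell and 1 rose (1.96% each, beside 4.62% and 2.45% of all genes). The falls numbered 2 without hypoosmotic replicate 3. Yy1, a factor that both activates and represses, went from 7.25, 7.36, 7.57 and 7.49 to 6.83, 6.94, 6.65 and 6.73 (-0.63 ± 0.11 SE, adjusted p = 0.00924, limma) and passed in all 8 fits without 1 array. Snai2, a factor of cell migration, rose by 0.88 ± 0.23 (0.0425) with hypoosmotic replicate 3 far above the others, and passed in 2 of the 8. Ctcf, the insulator protein gene, had a change of 0.13 ± 0.14 (0.703). Of 8 Zscan and Zkscan genes 0 passed by limma and 1 had an unadjusted p under 0.05.

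Of 15 Krueppel-like factors 1 rose, Klf10 (1.05 ± 0.15 SE), and 2 fell, Klf11 (-0.55 ± 0.12) and Klf6 (-0.55 ± 0.14). The rise was 6.67% of the list, beside 2.45% of all genes, and the falls, 2 of 15, stand beside 4.62%. All 15 lay above the near-background level, where 3.45% of genes rose and 6.74% fell. The falls numbered 0 without normoosmotic replicate 3, hypoosmotic replicate 1 or hypoosmotic replicate 2, and 1 without normoosmotic replicate 1, 2 or 4 or hypoosmotic replicate 3. The rises numbered 2 without hypoosmotic replicate 3 or 4. Of 15 CCCH genes, whose fingers bind RNA, 1 fell (6.67%, beside 4.62% of all genes). Of these 15, 13 lay above the near-background level, where 6.74% of genes fell. The fall was that of Zc3h11a, from 8.23 ± 0.08 to 7.65 ± 0.15 (SD, n = 4 each, adjusted p = 0.0109, limma). The 3 genes left out of the members did not pass, with changes of 0.09 ± 0.11 for Zfp36, -0.42 ± 0.14 for Zfp36l1 and -0.27 ± 0.29 for Zfp36l2 (SE), and Zfp36l1 passed without hypoosmotic replicate 4 (0.0368).

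Markers of other liver cell types were measured beside these genes. Kupffer cell and macrophage markers averaged 6.06 to 6.52 (log2) on the normoosmotic and 6.10 to 6.85 on the hypoosmotic arrays, and 0 of 8 passed by limma, with 0 at an unadjusted p under 0.05. The 5 sinusoidal endothelial markers measured averaged 6.37 to 6.67 and 6.67 to 7.09, and 1, Kdr, rose by 0.66 ± 0.15 (SE, adjusted p = 0.0280, limma). It passed in 2 of the 8 fits without 1 array. All 5 changes were above 0, with a median of 0.35, 3 of the 5 had an unadjusted p under 0.05, and in 2 the groups did not overlap. Stellate cell markers averaged 6.12 to 6.18 and 5.89 to 6.55, with 0 of 8 past the threshold and 2 at an unadjusted p under 0.05. Of the 8 stellate changes 7 were above 0 and 1 below, with a median of 0.21. The part of these cell types in the results was not tested.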

How the data were processed

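The authors deposited log2 expression values for 27596 probe sets on 8 arrays, made with RMA, Transcriptome Analysis Console 4.0 and Affymetrix Expression Console per the submitters' processing notes. RMA equalises the distributions of arrays, which removes a shift common to most genes. Array medians were 3.92 to 4.05. The sources used here give neither build nor probe masking. Their number, 4 per group, limits the precision.

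Names came from the 2016 platform annotation, with symbols updated by gene identifier. Of them 15316 had 1 symbol, 317 several and 11963 were not named here. The highest-mean probe set per gene gave 14511 genes. These were fitted with limma 3.58.1 (R 4.3.3, lmFit and eBayes, group as the only term), with Benjamini-Hochberg adjustment over all genes and p-values from both tails. A change is the hypoosmotic minus the normoosmotic mean. Tables and plots used Python 3.11.15, pandas 2.3.3 and matplotlib 3.10.9. On simulated data for this comparison (14511 genes, 200 changed) the fit recovered 30% of changes of 0.5 and 83% of changes of 1, with 6 false calls. The simulated noise was independent between genes, and in the data 1026 genes were called, so these rates need not hold for the data.

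Members and lists were chosen with earlier results of these data known. Named members were the called ones (up to 20 falls and 12 rises), the 5 brightest, the 3 nearest the threshold and a fixed set of 12, of which 9 were measured. From each related list the 3 called genes with the smallest p were named. The intended split by KRAB domain was not run, because no protein sequences were used here. Alternatives were array weights, a replicate term, robust variances with an intensity trend, further quantile normalization, median centring, leaving out the 30% dimmest genes, averaging probe sets, annotation symbols, a minimum fold change of 1.2, only members above background, and leaving out each array.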

Additional observations from a re-analysis of the deposited data

Results flagged for a closer look

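In 5 of 92 groups of 4 arrays (5.43%) over the genes named, 1 array stood apart from the other 3 by more than Dixon's limit at the 95% level for the ratio of the gap to the range. Chance gives about 1 in 20. For Zfp566 it was normoosmotic replicate 1, at 4.95 against 4.44 to 4.48 in the others (ratio 0.922). For Zfp207 it was normoosmotic replicate 4, at 8.39 against 8.54 to 8.56 (0.882), and for Zfp385a the same array, at 4.19 against 4.83 to 4.96 (0.831). For Klf10 it was again normoosmotic replicate 4, at 5.17 against 5.75 to 5.81 (0.906). For Snai2 it was hypoosmotic replicate 3, at 6.36 against 5.20 to 5.34 (0.879).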

How the results depend on the processing

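With a minimum fold change of 1.2, 83 genes passed, and of the zinc finger genes 1 was lower and 0 were higher by limma, while 9 and 4 had an unadjusted p under 0.05. Median centring gave a median change of -0.0425 for the zinc finger genes and -0.035 for all genes. Without 1 array, 468 to 1051 genes were called, 6 to 11 zinc finger genes were lower and 0 to 7 higher, and their median change ran from -0.0042 to 0.033. Under the other alternatives the counts of lower and higher zinc finger genes stayed within 1.5 times the reported ones. The 16 called members all passed with array weights, averaged probe sets and annotation symbols. Zfp867 was lost with quantile normalization, Zfp26 and Zfp451 with an intensity trend, and Zfp26 and Zfp612 with median centring, while all 15 called members that remained after leaving out the 30% dimmest genes passed.

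The direction turned in members near 0 that did not pass. Zfp266 was -0.015 with array weights, and with median centring Zfp281 was -0.0425, Zfp593 -0.025 and Zfp217 -0.03. Without 1 array Zfp281 ran from -0.14 to 0.10, Zfp266 from -0.096 to 0.18, Zfp593 from -0.10 to 0.15 and Zfp217 from -0.11 to 0.11. In 479 refits of named members, which leave out the minimum fold change, a call was lost in 50 and gained in 5. With the minimum fold change 15 more calls were lost, and only Zfp131 passed.

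With the replicate block, 1029 genes were called, with 10 zinc finger genes lower and 5 higher, and Zfp451 and Zfp612 were lost and Zfp322a was gained. Zfp180 and Zfp9 were gained with array weights, and Zfp639 with median centring. Deviations of same-numbered arrays correlated from 0.0061 to 0.257, and 6 of 8 arrays correlated best with their own number, a hint of pairing from the data that the labels do not give. Not every same-numbered pair exceeded 0.1, so the arrays were not treated as paired. The signal over background limits the 28 members near background.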
